A study of Mus musculus with 6 samples.

Results

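Kit and Kitl are 2 of the 25164 gene symbols in an expression table of newborn mouse ovary, taken by name as the receptor and ligand of 1 signalling pair. Whole ovaries of C57BL/6 mice at day 1 gave 6 RNA sequencing libraries. The 3 cKO libraries came from animals with floxed hnRNPL (gene symbol Hnrnpl, an RNA-binding splicing regulator) and a Stra8-cre transgene, whose promoter drives Cre recombinase in germ cells. The 3 control libraries are labelled wild type, and the labels name no allele or transgene in them. The extraction text of both groups mentions a hormone challenge without naming the hormone. No label says whether libraries of a group came from separate or pooled animals, so p-values measure only the spread between these libraries, which may be technical. Levels are in FPKM, fragments scaled to transcript length and library size. A comparison of the 2 genes with each other rests on the transcript lengths used, which are not stated.

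Kit is a type III receptor tyrosine kinase with a split kinase domain, and its ligand (stem cell factor) is made by neighbouring cells as a shed form and as a form that stays on the membrane. In the ovary, oocytes carry the receptor and granulosa cells make the ligand. The pair acts through PI3K, AKT and FOXO3 and through the RAS to MAPK cascade, and it is known for germ cell survival and for the growth of primordial follicles. Mast cells, melanocytes and blood progenitors also depend on Kit.

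Both genes have alternative coding stretches that a gene-level FPKM adds up. They are shown because the study's subject is a splicing regulator and these values do not separate the forms. The first is the exon of Kitl that holds the cleavage site of the shed form (chr10:100080857-100080940, plus strand, GRCm38, 84 bases). It is present in the annotated transcript Kitl-202, absent from Kitl-201, and printed in capitals between 15 bases of each adjoining exon. The second is the 3′ end of a Kit exon (chr5:75639147-75639158, plus strand, GRCm38, 12 bases), which the transcript Kit-201 holds and Kit-204 lacks. It is printed in capitals between 30 bases on each side. Both were read from the GENCODE M21 transcripts.
Kitl alternative exon: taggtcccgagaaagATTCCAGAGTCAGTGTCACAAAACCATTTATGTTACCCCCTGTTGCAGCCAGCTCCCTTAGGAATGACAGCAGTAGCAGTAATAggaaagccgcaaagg
Kit alternative exon end: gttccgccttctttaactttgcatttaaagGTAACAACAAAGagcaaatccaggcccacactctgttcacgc
The letters CACA, a short form of the CA-rich RNA that hnRNP L binds, occur 1 time on the sense strand of the Kitl exon. They occur in 32.3% of the 1445 annotated coding exons of that length, so the match is only a description. Binding was not measured.

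Kit lies on chromosome 5 from 75574987 to 75656722 and Kitl on chromosome 10 from 100015615 to 100100416 (RefSeq, GRCm38.p6). GENCODE M21 lists 8 transcripts of Kit, 2 of them protein coding and 6 with a retained intron, and 6 of Kitl, 4 of them protein coding. No other annotated gene overlaps either of them on either strand. Their promoters are shown because both genes had a higher mean level in cKO. Each line gives the 250 bases before a RefSeq start, on the plus strand of GRCm38.p6, at chr5:75574737-75574986 for Kit and chr10:100015571-100015820 for Kitl, whose window lies before a start inside the gene and so holds the gene's first annotated base. Capitals mark GGGCGG (the GC box, on either strand) and TATAAA (the TATA box), and adjoining capitals in Kitl are overlapping matches.
Kit promoter: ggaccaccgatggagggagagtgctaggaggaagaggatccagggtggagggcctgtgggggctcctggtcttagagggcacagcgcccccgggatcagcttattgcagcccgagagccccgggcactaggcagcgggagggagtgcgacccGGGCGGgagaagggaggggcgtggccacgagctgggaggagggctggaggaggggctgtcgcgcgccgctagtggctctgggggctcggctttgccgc
Kitl promoter: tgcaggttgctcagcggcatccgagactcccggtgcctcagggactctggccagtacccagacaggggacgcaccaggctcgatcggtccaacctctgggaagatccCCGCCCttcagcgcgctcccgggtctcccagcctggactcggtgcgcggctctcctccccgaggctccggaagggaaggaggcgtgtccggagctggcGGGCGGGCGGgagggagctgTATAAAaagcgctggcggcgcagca
Kit has 1 GC box and no TATAAA, while Kitl has 3 GC boxes and 1 TATAAA whose first base lies 25 bases before the start. GGGCGG occurs in 32.7% and TATAAA in 12.4% of 32817 windows of the same kind. The E-box CANNTG, the class of site bound by helix-loop-helix proteins such as SOHLH1 and SOHLH2, was searched on both strands and has no match in either window, against 66.2% of all windows. Both windows are rich in G and C, at 70.8% and 69.2% of bases against a mean of 53.2%.

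Libraries were compared at an estimated 7300000 to 14400000 fragments, read from the steps of low FPKM values, with cKO replicate 1 the shallowest. At that depth Kit rested on about 2000 to 3160 fragments and Kitl on about 3120 to 4730 per library. These counts assume the longest annotated coding transcripts, 5241 bases for Kit and 5648 for Kitl. Under that assumption the counting error was 1.78% to 2.24% for Kit and 1.45% to 1.79% for Kitl. In cKO replicate 1 most genes were higher: the median of 12442 tested genes was 8.40 FPKM there and 6.85 to 7.09 in the others. Results are therefore given as deposited and after median-of-ratios scaling, which divides each library by its median ratio to the gene-wise mean. Hnrnpl itself was measured at 81.5 to 100.5 FPKM in cKO and 93.8 to 104.1 in wild type (log2 fold change -0.17, limma adjusted p = 0.571). After scaling the groups did not overlap, at 84.2 to 87.5 and 95.4 to 107.4, with a log2 fold change of -0.26 (limma adjusted p = 0.1498). Gene-level values of a tissue that also holds somatic cells are a weak check of the labels. Defining ovary markers were present in every library, with Foxl2 at 57.5 FPKM or more and Dazl at 9.34 or more.

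The receptor was higher in cKO ovaries. Kit stood at 74.7, 57.1 and 51.3 FPKM in cKO replicates 1, 2 and 3, and at 37.7, 37.8 and 35.8 FPKM in wild type replicates 1, 2 and 3. Every cKO library lay above every wild type library, and the cKO libraries were spread more widely, at 61.1 ± 12.2 FPKM against 37.1 ± 1.14 (SD, n = 3). The means differed 1.65-fold, with an exact two-sided permutation p = 0.1, the smallest that 3 against 3 libraries allow. On the log2(FPKM + 1) scale the fold change was 0.69 (SE 0.15) and missed the threshold over all genes (limma adjusted p = 0.139). Median-of-ratios scaling gave cKO levels of 63.6, 59.0 and 52.7 and wild type levels of 38.1, 38.4 and 37.7. The scaled fold change of 0.60 (SE 0.09) passed the test over all genes (limma adjusted p = 0.0223). Without cKO replicate 1 Kit also passed on the deposited values (log2 fold change 0.54, limma adjusted p = 0.0466). The scaled call was lost without cKO replicate 2 (0.0883) and without wild type replicate 1, 2 or 3 (0.109, 0.096 and 0.104, limma adjusted p). It was also lost with the replicate block (0.0766) and remained without cKO replicate 1 (0.0446) or cKO replicate 3 (0.0195).

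The ligand was higher by a smaller margin. Kitl stood at 79.6, 63.2 and 71.1 FPKM in cKO replicates 1, 2 and 3, and at 53.7, 59.9 and 51.6 FPKM in wild type replicates 1, 2 and 3. The groups did not overlap, but cKO replicate 2 and wild type replicate 2 lay close together. Means were 71.3 ± 8.15 and 55.1 ± 4.33 FPKM (SD, n = 3), a 1.29-fold difference with an exact two-sided permutation p = 0.1. Over all genes the test was not passed, with limma's adjusted p = 0.290 at a log2 fold change of 0.36 (SE 0.13). Scaling left 0.28 (SE 0.08), again short of the threshold (limma adjusted p = 0.140). None of 22 alternatives called Kitl, while its sign was positive in all 22. Its difference of means had an exact permutation p = 0.2 after quantile normalization and 0.3 after rescaling to TPM, in which all libraries have the same sum.

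As background for these counts, 6 of 12442 tested genes (0.0482%) were called higher and 9 (0.0723%) lower in cKO on the deposited values. After scaling 95 (0.764%) were called higher, Kit among them, and 66 (0.53%) lower. All cKO libraries lay above all wild type libraries in 15.5% of tested genes as deposited and 12.6% after scaling. They lay below in 7.03% and 13.0%. The lack of overlap at Kit and Kitl is thus shared with many genes.

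**Figure D1:**
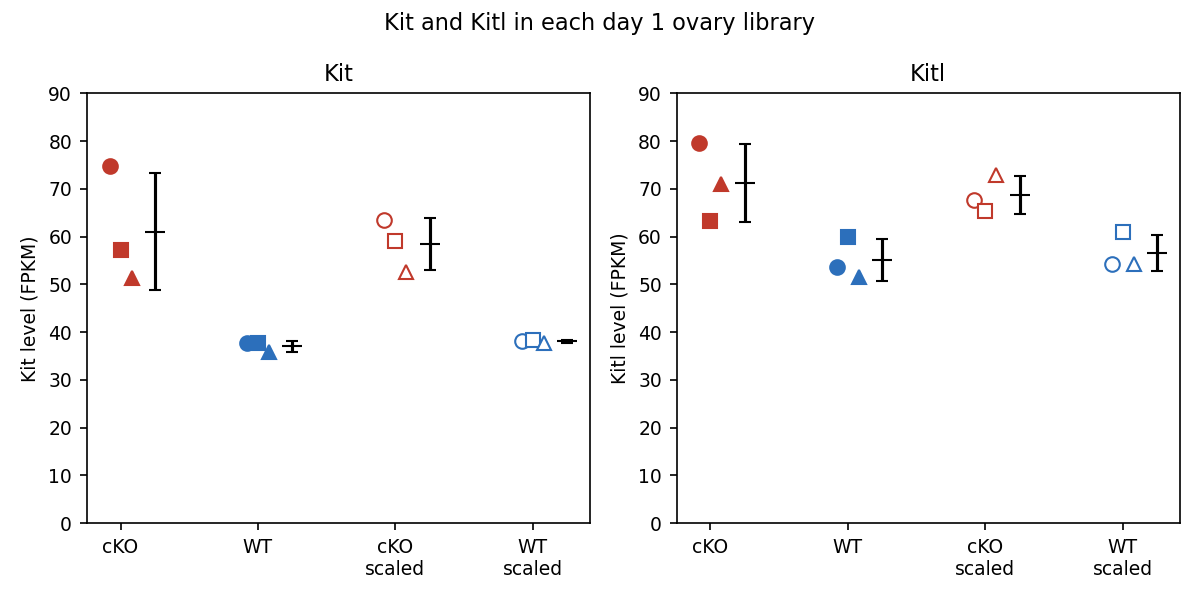
Level of Kit (left) and Kitl (right) in FPKM, from 0, in each library: filled symbols as deposited, open symbols after median-of-ratios scaling, circles, squares and triangles for replicates 1, 2 and 3, bars for the mean and SD of 3. Kit lies at 51.3 to 74.7 FPKM in cKO and 35.8 to 37.8 in wild type, and scaling draws its cKO values closer together.

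Both genes were among the more abundant transcripts of the tissue. Kitl ranked between 379 and 568 among the 12442 tested genes, and its cKO and wild type ranks overlapped. Kit ranked 506 to 560 in cKO and 848 to 912 in wild type, so its ranks did not overlap. In FPKM the ligand exceeded the receptor in all 6 libraries, a gap that depends on the unstated transcript lengths. The ratio of Kit to Kitl was 0.940, 0.903 and 0.722 in cKO replicates 1, 2 and 3 and 0.702, 0.630 and 0.693 in wild type replicates 1, 2 and 3. A ratio within a library does not depend on how that library is scaled. All cKO ratios lay above the wild type ratios, cKO replicate 3 by little, and the mean log2 difference was 0.33 (exact two-sided permutation p = 0.1, adjusted p = 0.133 over the 4 ratios tested here).

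In whole tissue, fewer cells of a type and less RNA per cell cannot be told apart, so both genes were also set beside markers of the cells that make them. The germ cell list has 26 genes, of which 25 are in the table and 21 were tested. Its summed level was 417.7, 330.2 and 248.0 FPKM in cKO replicates 1, 2 and 3 and 189.9 to 210.1 in wild type, the same order of cKO libraries as for Kit. Of the 21 members 20 had positive fold changes, with a median of 0.60 against 0.08 over all tested genes. None was called as deposited and 5 were called higher after scaling, against 0.764% of all tested genes. As deposited 13 of the 21 lay above wild type without overlap, against 15.5% of all tested genes. Relative to the geometric mean of these markers, Kit stood at 5.76, 5.46 and 6.24 in cKO replicates 1, 2 and 3 and at 5.83, 5.42 and 5.67 in wild type. The groups overlapped, and the mean log2 difference was 0.04 (exact two-sided permutation p = 0.6, adjusted p = 0.6 over the 4 ratios). Its sign turned with members of at least 5 FPKM (-0.03) and without cKO replicate 3 (-0.01). The ratio depends on the markers chosen, since Ddx4 did not share the rise of most of the list.

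For Kitl the marker list taken as a whole behaved otherwise. The pregranulosa list, the cells known to make the ligand, had 23 of 24 members tested, 10 positive and 13 negative, with a median fold change of -0.10. No member was called as deposited, and after scaling 0 were higher and 4 lower: Rspo1, Lhx9, Nr2f2 and Krt19. Over all tested genes 0.53% were called lower after scaling. Krt19 is also a surface epithelium marker. The summed level of the list, 775 to 937.1 FPKM in cKO, overlapped the wild type range of 805.8 to 837.6. Relative to the geometric mean of 23 markers, Kitl stood at 3.40, 3.26 and 3.65 in cKO replicates 1, 2 and 3 and at 2.38, 2.68 and 2.24 in wild type. Every cKO ratio lay above every wild type ratio, and the mean log2 difference was 0.50 (exact two-sided permutation p = 0.1, adjusted p = 0.133 over the 4 ratios). It stayed between 0.44 and 0.57 without any 1 library. Foxl2, the transcription factor that maintains granulosa identity, stood at 73.8 ± 11.3 FPKM in cKO and 59.2 ± 1.44 in wild type, and Amhr2, the receptor for anti-Müllerian hormone, at 91.6 ± 18.0 and 72.8 ± 0.514 FPKM (SD, n = 3). Lhx9, a gonadal homeobox gene, stood at 10.2 ± 0.471 and 15.8 ± 0.318 FPKM, so members of this list did not move together. Foxl2, Amhr2 and Wnt6 had log2 fold changes of 0.30, 0.31 and 0.40, near the 0.36 of Kitl, while 13 members were negative. The mean log2 difference of 0.50 thus depends on the markers chosen.

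**Figure D2:**
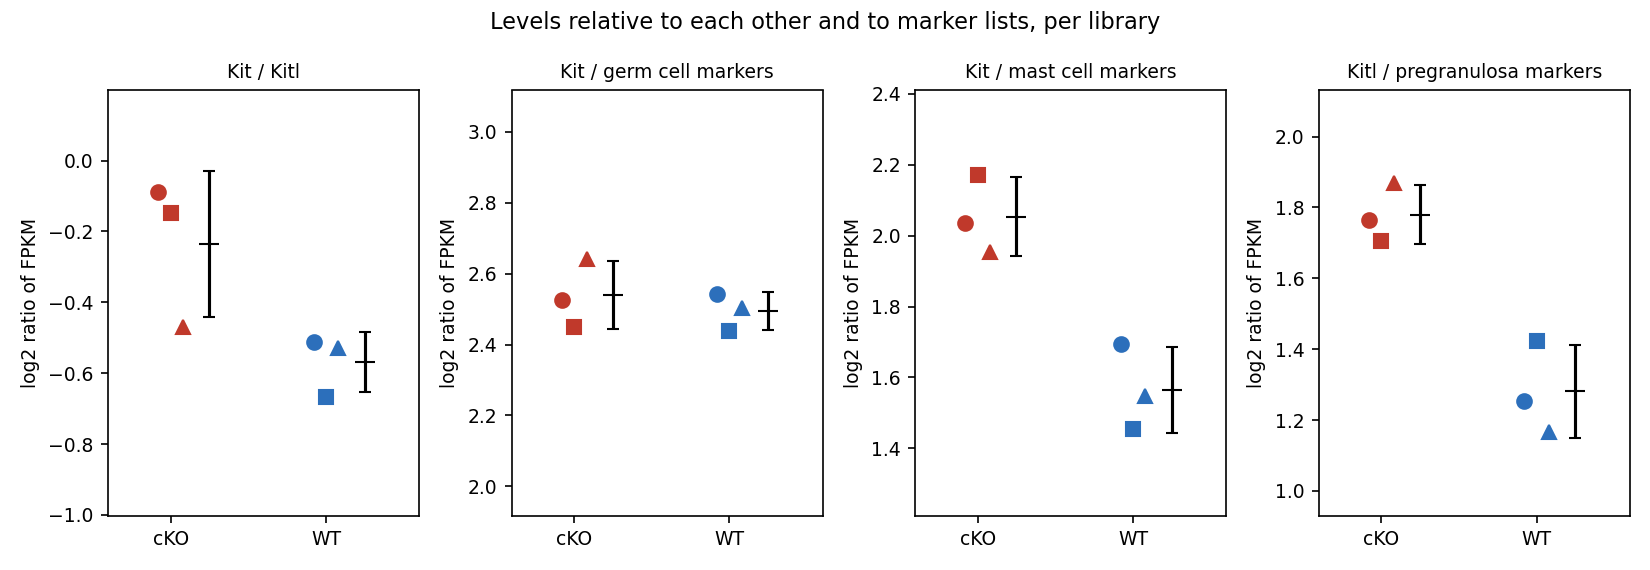
Log2 ratio of FPKM per library for Kit to Kitl, Kit to germ cell markers, Kit to mast cell markers and Kitl to pregranulosa markers (geometric means), with circles, squares and triangles for replicates 1, 2 and 3 and bars for the mean and SD of 3. The cKO and wild type points overlap for Kit to germ cell markers, where the mean difference is 0.04, and do not overlap in the other 3 panels.

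Other cells that carry Kit were looked for with marker lists. Mast cell genes were detected: 7 of 11 members were tested, and the list summed to 149.9 to 211.3 FPKM in cKO and 131.0 to 159.8 in wild type, ranges that overlap. Mcpt4 and Cma1, mast cell chymases, had higher means in cKO, Mcpt4 at 35.04 ± 10.01 FPKM against 21.8 ± 4.60 and Cma1 at 50.7 ± 8.11 FPKM against 38.2 ± 1.97 (SD, n = 3). For Mcpt4, cKO replicate 3 and wild type replicate 2 were practically tied, at 27.09 and 27.08 FPKM. Tpsb2, a mast cell tryptase, stood at 51.1 ± 11.3 and 50.9 ± 3.71 FPKM, and Slc18a2, a monoamine transporter, at 6.34 ± 0.753 and 8.27 ± 0.497 FPKM. The list thus had 5 positive and 2 negative members, a median of 0.25 and no call as deposited or after scaling. Relative to the geometric mean of the 7 mast cell genes, Kit was 3.87 to 4.50 in cKO and 2.74 to 3.24 in wild type, a mean log2 difference of 0.49 (exact two-sided permutation p = 0.1, adjusted p = 0.133 over the 4 ratios). This ratio was added after the mast cell values were seen.
Melanocyte markers were near 0, with the 7 genes summing to 0.391 to 0.969 FPKM and Dct and Tyrp1 listed at 0 in all 6 libraries. The list of blood progenitors and erythroid cells summed to 509.4 to 579.4 FPKM in cKO and 824.5 to 882.7 in wild type, mostly globin, while its leukocyte genes Spi1 and Ptprc were at 1.02 FPKM or less. Cd34, a marker of blood progenitors that endothelium also expresses, stood at 41.4 ± 6.19 FPKM in cKO and 44.9 ± 3.83 in wild type (SD, n = 3), with groups that overlapped. What part mast cells or progenitors have in the level of Kit was not tested. Of its 8 tested members 3 were positive and 5 negative and none was called as deposited or after scaling.

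Transcription factors of the early oocyte split around Kit. Sohlh1, which with Sohlh2 and Lhx8 is known to act upstream of Kit in oocytes, stood at 54.1, 34.4 and 28.9 FPKM in cKO replicates 1, 2 and 3 and at 20.9, 19.3 and 18.4 FPKM in wild type. Its groups did not overlap, and cKO replicate 1 was the highest library, as for Kit. In log2 terms it was higher by 0.92 (SE 0.21, limma adjusted p = 0.148), and by 0.83 (SE 0.14, limma adjusted p = 0.0411) after scaling. The scaled call of Sohlh1 was lost with the replicate block (limma adjusted p = 0.0681), without cKO replicate 2 (0.114) and without wild type replicate 1, 2 or 3 (0.126, 0.137 and 0.14). Sohlh2 stood at 7.46 ± 2.92 FPKM in cKO and 3.35 ± 0.201 in wild type, and Lhx8, a LIM homeobox factor, at 16.9 ± 4.25 and 9.95 ± 0.272 FPKM (SD, n = 3). Neither passed after scaling (limma adjusted p = 0.0960 and 0.0735), though their groups did not overlap.
Figla and Nobox, transcription factors of the zona and oocyte gene programme, did not share this pattern. Figla stood at 22.1, 15.4 and 9.96 FPKM in cKO and 12.7, 13.7 and 14.8 FPKM in wild type, and Nobox at 13.9, 9.67 and 7.03 FPKM and 10.6, 8.11 and 9.36 FPKM. In both, cKO replicate 1 was the highest library and cKO replicate 3 the lowest, and the groups overlapped. Gata2, a transcription factor known to drive Kit in blood cells, stood at 3.12 ± 0.407 and 4.29 ± 0.360 FPKM (SD, n = 3). Of the 12 factors listed 9 were tested, 7 positive and 2 negative with a median of 0.13. After scaling 1 was called higher, against 0.764% of all tested genes.

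Most genes listed for growing oocytes had lower values in cKO. Of 13 tested members 10 had negative fold changes and the median was -0.60. As deposited 2 were called lower, against 0.0723% of all tested genes. The summed level overlapped, at 373.1, 285.0 and 196.5 FPKM in cKO and 260.6, 264.0 and 211.2 FPKM in wild type, and its most abundant member Uchl1, which neurons also express, had a fold change of 0.61. Nlrp5 and Dppa3, the latter also a member of the germ cell list, were at 0.24 and 0.27. Zp3, a zona pellucida glycoprotein, stood at 2.05, 2.41 and 2.12 FPKM in cKO and 9.47, 9.63 and 5.69 FPKM in wild type, and fell (log2 fold change -1.51, SE 0.18, limma adjusted p = 0.0437). Nlrp14 fell as well (log2 fold change -1.56, limma adjusted p = 0.0437). Both calls were lost with the replicate block (limma adjusted p = 0.0617 and 0.0901) and without cKO replicate 2 (0.136 and 0.148), wild type replicate 1 (0.1497 and 0.148) or wild type replicate 2 (0.1501 and 0.159). After scaling Gdf9, Npm2 and Jag1 were also called lower, 5 in all and 0 higher, against 0.53% of all tested genes called lower. Among these Gdf9, which oocytes secrete to act on granulosa cells, had 2.61 ± 0.172 FPKM in cKO against 5.54 ± 1.47 in wild type (SD, n = 3).

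**Figure D3:**
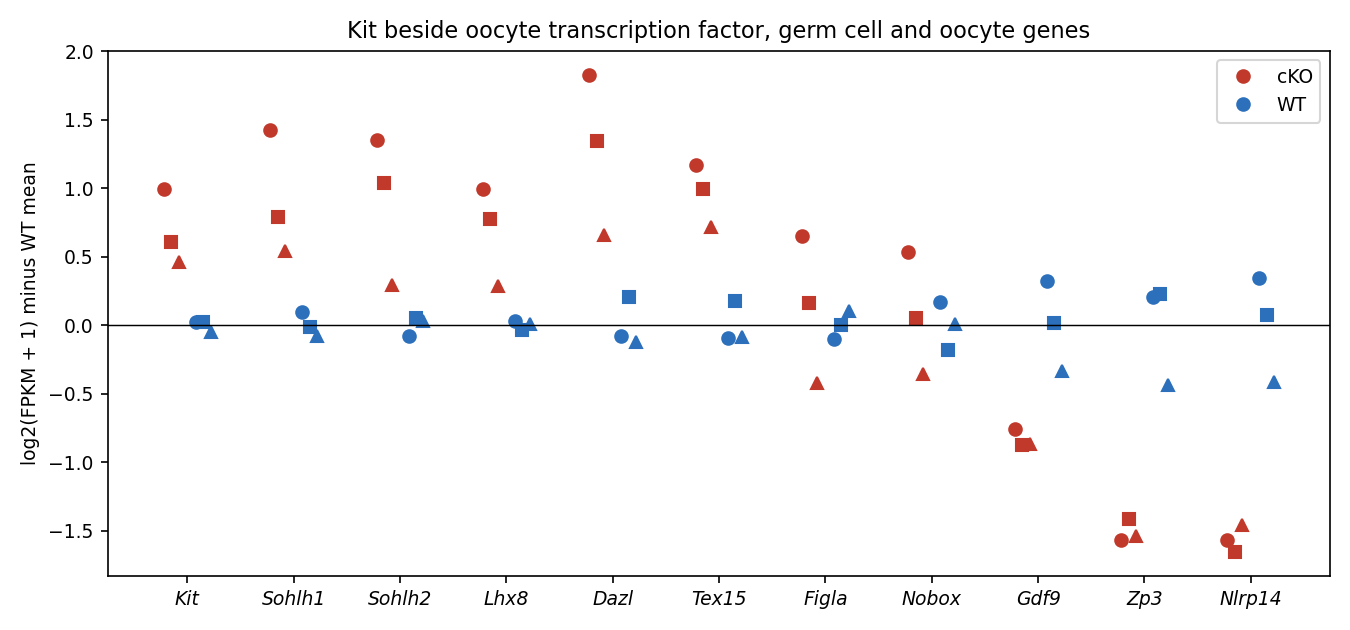
Deviation of log2(FPKM + 1) from the wild type mean, per library, for Kit and 10 genes of germ cells and oocytes; red is cKO, blue is wild type, and circles, squares and triangles are replicates 1, 2 and 3. Kit, Sohlh1, Sohlh2, Lhx8, Dazl and Tex15 have all cKO points above the wild type points, Figla and Nobox straddle them, and Gdf9, Zp3 and Nlrp14 lie below.

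The closest relatives of the receptor had lower mean values in cKO, with none of them called as deposited or after scaling. Of the 5 type III receptor tyrosine kinase genes 4 were tested, and Kit was the only one with a positive fold change, as deposited, after scaling and in the other alternatives run. Pdgfra, a growth factor receptor of stromal cells that is the next protein-coding gene before Kit on chromosome 5 at a distance of 376.8 kb, stood at 26.6, 23.9 and 27.9 FPKM in cKO and 36.2, 35.1 and 33.6 FPKM in wild type. The groups did not overlap, and the log2 fold change was -0.41 as deposited (SE 0.10, limma adjusted p = 0.185) and -0.49 after scaling (SE 0.09, limma adjusted p = 0.0509). On scaled values without cKO replicate 3 Pdgfra was called lower (-0.58, limma adjusted p = 0.0217). Pdgfrb, its pericyte counterpart, stood at 12.5 ± 0.253 and 15.2 ± 1.78 FPKM, and Csf1r, the macrophage colony-stimulating factor receptor, at 2.48 ± 0.348 and 3.54 ± 0.988 FPKM (SD, n = 3). The groups overlapped for Csf1r and did not for Pdgfrb. Of the 4 tested receptors 1 lay above and 2 below without overlap as deposited, against 15.5% and 7.03% of all tested genes. Flt3, a receptor of blood progenitors, was at 0.05 FPKM or less in each library and was not tested.
On the other side of Kit, 276.1 kb away, Kdr, the endothelial VEGF receptor, stood at 13.0, 11.1 and 11.9 FPKM in cKO and 16.1, 15.8 and 14.0 FPKM in wild type. Its difference was -0.33 on the log2 scale (SE 0.10, limma adjusted p = 0.244) and -0.41 after scaling (SE 0.08, limma adjusted p = 0.0515). Quantile normalization called Kdr lower (-0.43, limma adjusted p = 0.0418). Both flanking genes were thus lower in cKO while Kit was higher, with values that did not overlap. Such a lack of overlap below wild type was seen in 7.03% of all tested genes as deposited and 13.0% after scaling. The stroma and endothelium lists, which hold Pdgfra and Kdr themselves, were lower as well: 10 of 11 and 12 of 12 tested members had negative fold changes. As deposited 0 were called in both lists. After scaling 0 were higher in both, and 3 and 0 were lower, against 0.53% of all tested genes called lower. Stroma markers summed to 868 to 966.9 FPKM in cKO against 1112 to 1167, and endothelium markers to 81.0 to 97.9 FPKM against 98.3 to 125.8. Their part in the levels of Pdgfra and Kdr was not tested. Kitl has Csl before it at 256 kb and the predicted gene Gm4302 after it at 240.4 kb. Csl was at 0.372 FPKM or less and Gm4302 was listed at 0 in each library.

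Among the 8 ligand genes 7 were tested. Kitl had the highest level and the largest positive fold change. Pdgfb, which endothelium makes to recruit pericytes, averaged 3.57 ± 0.460 FPKM in cKO and 5.05 ± 0.218 in wild type, Il34 at 1.87 ± 0.249 and 2.73 ± 0.321 FPKM and Csf1 at 1.69 ± 0.156 and 2.18 ± 0.166 FPKM (SD, n = 3). In each of these 3 genes the groups did not overlap and cKO was lower, without passing the test. Of the 7 tested ligand genes 1 lay above and 3 below without overlap, against 15.5% and 7.03% of all tested genes. Pdgfa, Pdgfc and Pdgfd overlapped between the groups, with fold changes of 0.07, -0.20 and -0.12, and that of Pdgfa turned to -0.01 after scaling. Flt3l was at 0.968 FPKM or less and was not tested. No ligand gene was called as deposited or after scaling.

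**Figure D4:**
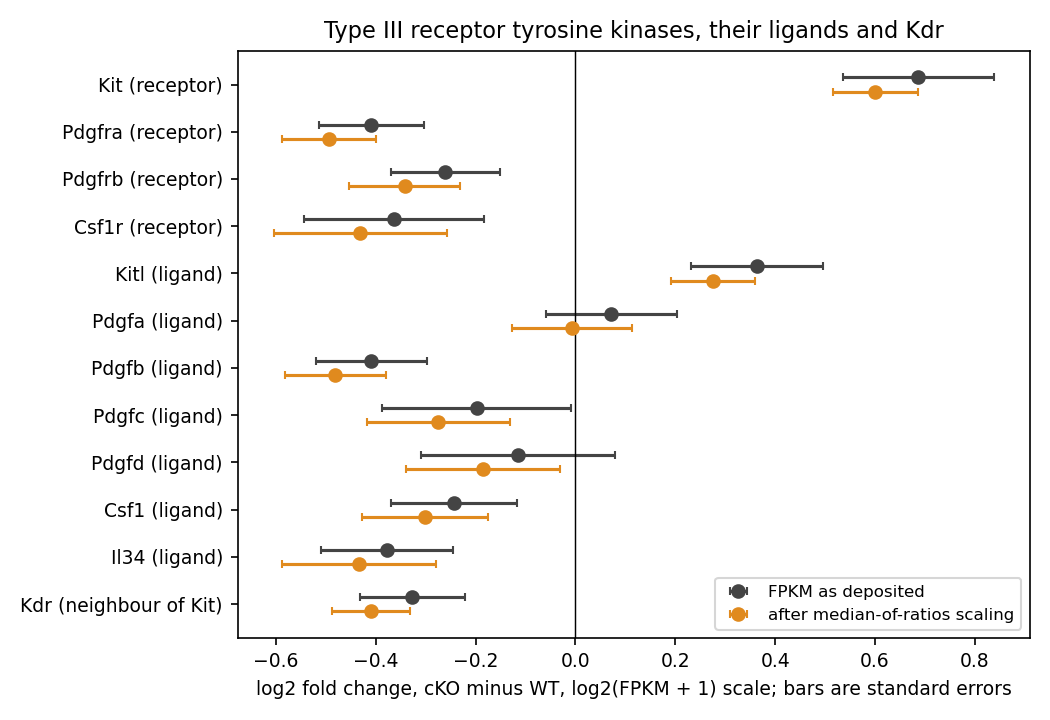
Log2 fold change of cKO minus wild type on the log2(FPKM + 1) scale, with standard errors, for 4 receptors, 7 ligands and Kdr, as deposited (grey) and after median-of-ratios scaling (orange). Kit at 0.69 and Kitl at 0.36 are the highest points, and Pdgfra, Pdgfrb, Csf1r, Pdgfb, Il34, Csf1 and Kdr lie below 0 in both.

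The machinery below the receptor showed no called gene. Of 37 adaptors and kinases of Kit signalling 34 were tested, 24 positive and 10 negative with a median of 0.08, equal to that of all tested genes; after scaling 17 were positive and 17 negative. The smallest p belonged to Map2k1, a MAPK kinase, at 16.1, 11.7 and 11.9 FPKM in cKO and 9.36, 8.08 and 9.56 FPKM in wild type. Next were Plcg2, a phospholipase C, at 5.84 ± 2.08 and 3.10 ± 0.247 FPKM, Stat5b at 6.96 ± 0.478 and 5.67 ± 0.290 FPKM and Mapk8, the kinase JNK1, at 9.56 ± 0.535 and 8.17 ± 0.389 FPKM (SD, n = 3). In each of these 4 genes, picked for the smallest p, the groups did not overlap. None passed over all genes, with Map2k1 at a log2 fold change of 0.50 (limma adjusted p = 0.201). Of the 34 tested members 7 lay above and 1 below without overlap as deposited, against 15.5% and 7.03% of all tested genes.

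In the PI3K arm 26 of 26 genes were tested, 15 positive and 11 negative, with a median of 0.03. After scaling 8 were positive and 18 negative and none was called. As deposited 3 of the 26 lay above and 3 below without overlap, against 15.5% and 7.03% of all tested genes. Foxo3, the transcription factor that AKT holds out of the nucleus and that keeps primordial follicles dormant, stood at 39.3, 35.1 and 34.5 FPKM in cKO and 27.7, 27.6 and 28.7 FPKM in wild type. All cKO values lay above the wild type values. The difference of 0.36 in log2 terms (SE 0.10) missed the threshold, with limma's adjusted p = 0.205, and 0.107 after scaling. Cdkn1b, the cell cycle inhibitor p27 of the same pathway, stood at 89.3 ± 14.6 and 72.7 ± 2.63 FPKM. The PI3K subunit genes were mixed. Lower values in cKO were measured for Pik3cd at 0.892 ± 0.214 and 1.52 ± 0.193 FPKM and Pik3r1 at 20.5 ± 1.15 and 24.2 ± 1.03 FPKM (SD, n = 3), also without passing. Pik3ca, a catalytic subunit, was lower in each cKO library as well, at 5.51 ± 0.299 and 6.33 ± 0.316 FPKM, and did not pass. Pik3r2, another regulatory subunit, was higher in each cKO library, at 20.5, 16.2 and 16.0 FPKM against 15.2, 13.5 and 15.3, and Pik3cb and Pik3r3 had fold changes of -0.02 and 0.11.

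Inhibitors of the receptor had 15 of 20 members tested, 5 positive and 10 negative, with a median of -0.03 and no call as deposited or after scaling. Sh2b3, an adaptor that restrains Kit and cytokine receptors, stood at 10.8, 10.99 and 10.2 FPKM in cKO and 8.73, 7.47 and 8.03 FPKM in wild type, with groups that did not overlap (log2 fold change 0.37, SE 0.10, limma adjusted p = 0.188). Socs6 stood at 7.64 ± 0.979 and 6.39 ± 0.720 FPKM and Spry2, an antagonist of receptor tyrosine kinases, at 13.0 ± 1.04 and 15.1 ± 1.12 FPKM (SD, n = 3). The proteases that shed membrane ligand had 4 of 7 members tested, all 4 positive as deposited and all 4 negative after scaling, with a median of 0.06 and -0.02. Their groups overlapped for every tested member, and none was called.

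**Figure D5:**
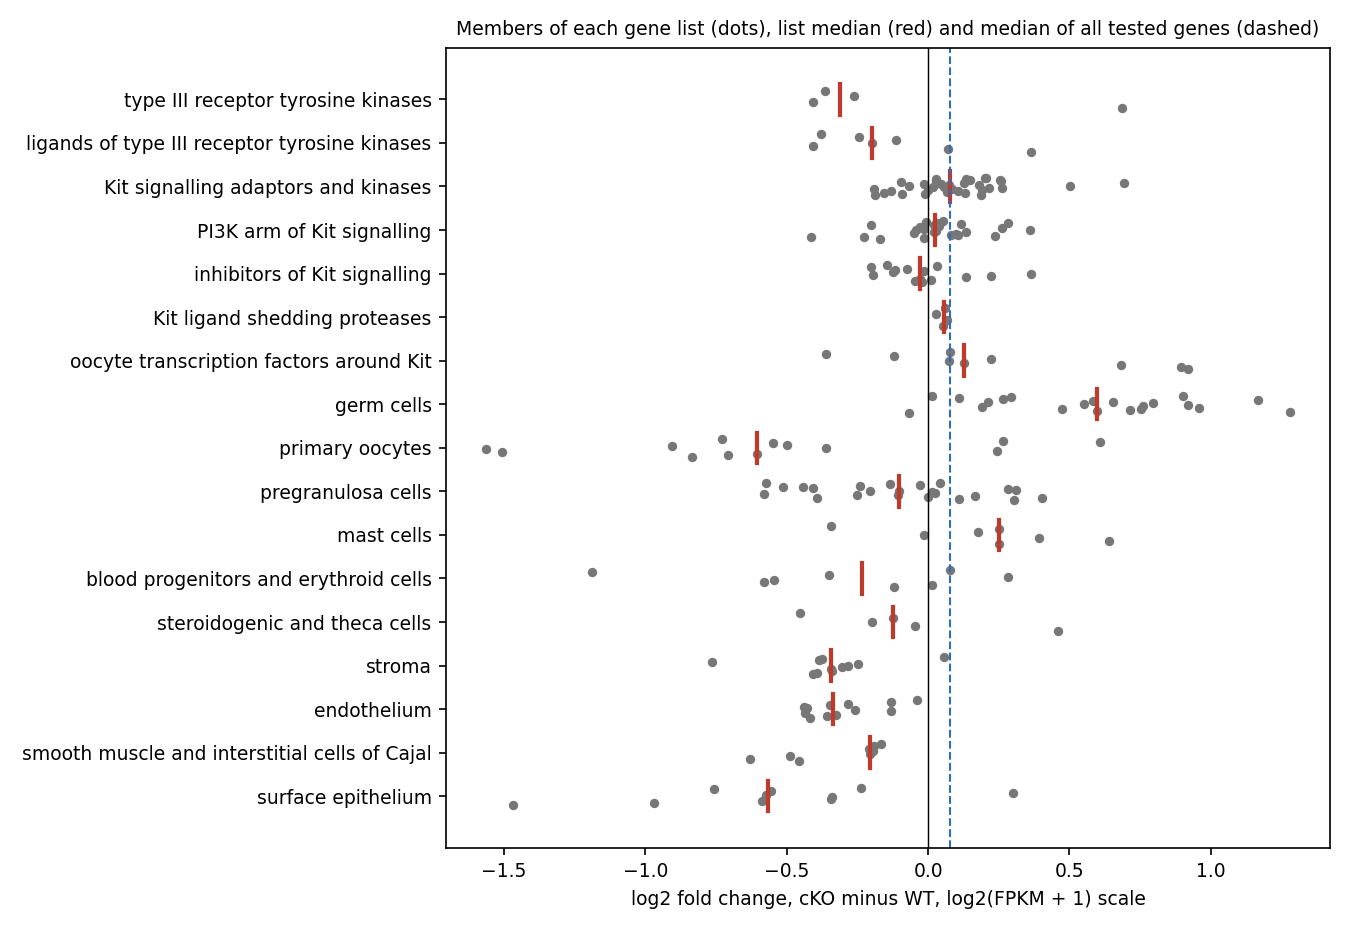
Log2 fold change of cKO minus wild type on the log2(FPKM + 1) scale, as deposited, for each tested member (dots) of 17 gene lists, with the list median in red and the median of all tested genes, 0.08, as a dashed line. The signalling lists centre near that line, the germ cell list lies above at a median of 0.60, and Kit is the isolated point at 0.69 among the type III receptors.

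Genes whose levels over the 6 libraries were most like Kit were looked for among the 7883 genes averaging 5 FPKM or more. Among the closest were Slc25a31, the ADP/ATP carrier of germ cells, Tmem106c, Kank3 and the glutathione transferase Gstm6, with Pearson's r of 0.997 to 0.998 on log2(FPKM + 1). Slc25a31 stood at 17.2, 12.0 and 9.23 FPKM in cKO and 5.48, 5.66 and 5.22 FPKM in wild type, the order of libraries seen for Kit. For Kitl the 5 closest were Rnaseh2c, a subunit of RNase H2, the deubiquitinase Usp9x, Dipk2a, Atrn and the RNA-binding Mbnl3, with r of 0.991 to 0.996. The 2 sets share no gene. Each r is a description over 6 libraries that fall into 2 groups and share the same scaling, picked as the highest of many, and carries no test.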

How the data were processed

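The authors deposited 1 table of FPKM values with 6 columns, each matched to 1 sample title. Per the submitters' processing notes the build is mm10 and STAR 2.7.11a, HISAT2 2.2.1 and featureCounts 2.0.6 were used, in roles not stated. Neither the FPKM program nor the annotation release is given in the sources used here; the deposited name hints that duplicates were removed. The 12442 genes averaging 1 FPKM or more were tested on log2(FPKM + 1) with limma 3.58.1 in R 4.3.3 (intensity trend, two-sided, Benjamini-Hochberg, threshold 0.05), so fold changes of low genes are understated. The limma fit, without and with median-of-ratios scaling, was tested on simulated data that held no library-wide shift. Single values were compared by exact permutation. Depth was estimated from 2437 genes with 1 annotated transcript of at least 1500 bases, assuming fragments of 200 bases; 73.6% to 79.4% of low values lay within 0.15 of a whole fragment. Alternatives were another pseudocount (0.1), other filters, scalings, weighting of libraries, blocking on the replicate number, and each library left out in turn. The members and lists were chosen with earlier results of these data known. The rule for named genes took Kit, Kitl, Hnrnpl, the receptor and ligand families, chromosomal neighbours, up to 4 members of each list with the smallest p, and the 5 genes most like each member, of which 1 is not reported here; other named genes were chosen after their values were seen.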

Additional observations from a re-analysis of the deposited data

How the results depend on the processing

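Kit had a positive log2 fold change in all 22 alternatives, from 0.49 to 0.80 (limma adjusted p from 0.0136 to 0.456), and passed in 6 of them. It passed with median-of-ratios scaling (0.60), quantile normalization (0.55), library weights (0.58) and without cKO replicate 1 (0.54), and, in alternatives chosen after seeing the data, with scaling and without cKO replicate 1 (0.54) or cKO replicate 3 (0.67). Leaving out 1 library gave 0.54 to 0.80 for Kit and 0.28 to 0.45 for Kitl. Kitl ranged from 0.16 to 0.45 and passed in none (limma adjusted p from 0.140 to 0.652). Rescaling to TPM shifted the median of all genes from 0.08 to -0.12, and relative to that median Kit was at 0.62 and Kitl at 0.29, against 0.61 and 0.29 as deposited. The number of genes called was 15 as deposited, 34 with a pseudocount of 0.1, 5 without a filter, 23 with a filter at 5 FPKM, 161 with median-of-ratios scaling, 236 with quantile normalization, 124 with TPM rescaling, 5 without the intensity trend and 172 with library weights. Leaving out 1 library gave 2 to 89, and on scaled values 95, 24 and 209 (cKO replicate 1, 2 or 3 left out) and 5, 40 and 28 (wild type replicate 1, 2 or 3). The cause was not tested. The calls of Zp3 and Nlrp14 were both lost without a filter (limma adjusted p = 0.106 for each), without the intensity trend (0.0540 for each) and with cKO replicate 2 or either of the first 2 wild type libraries left out (0.136 to 0.159).

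Deviations of same-numbered libraries were little correlated (-0.011, 0.039 and 0.068). With 3 libraries a group and no label on pairing, this cannot show whether the numbers pair them. Not every library correlated best with its own number: cKO replicate 1 did so with wild type replicate 2 (0.028), while cKO replicates 2 and 3 did so with their own number. With the replicate block 2 genes were called, 25 with scaling as well. The block left Kit at 0.69 (limma adjusted p = 0.175) and Kitl at 0.36 (0.375), and with scaling Kit at 0.60 (0.0766). It ended the calls of Zp3 (0.0617) and Nlrp14 (0.0901).

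The ratio of Kit to germ cell markers turned to -0.03 with members of at least 5 FPKM, and ranged from -0.007 to 0.089 with 1 library left out. Signs also turned for genes near 0, none of them called. Figla was at -0.074 with TPM rescaling and -0.033 with library weights, and ranged from -0.132 to 0.404 with 1 library left out. On scaled values it was at -0.129 (cKO replicate 1 left out), -0.017 (cKO replicate 2) and -0.021 (wild type replicate 1). Nobox was at -0.006 on scaled values, with or without the block, and at -0.024, -0.125 and -0.091 with quantile normalization, TPM rescaling and library weights. It ranged from -0.155 to 0.293 with 1 library left out, and on scaled values was at -0.151 (cKO replicate 1 left out), -0.038 (cKO replicate 2) and -0.103 (wild type replicate 2). Pdgfa was at -0.007 on scaled values, with or without the block, and at -0.019, -0.123 and 0 with quantile normalization, TPM rescaling and library weights. It ranged from -0.044 to 0.154 with 1 library left out, and on scaled values was at -0.06 (cKO replicate 3 left out) and -0.131 (wild type replicate 2). With 1 library left out Pdgfd ranged from -0.34 to 0.042 and Tpsb2 from -0.185 to 0.089. With 3 libraries a group, exact tests cannot go below 0.1.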
